A study of Homo sapiens with 8 samples.

Results

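S100 proteins are small calcium-binding proteins that carry EF-hand motifs, usually form dimers and have no enzymatic activity of their own. Calcium opens a surface on the dimer to which annexins, cytoskeletal proteins or other targets bind, and several members are also released and signal through receptors such as AGER (RAGE) and TLR4. In pancreatic ductal adenocarcinoma the family is known for members expressed by the tumour cells themselves, among them S100P, S100A4, S100A6 and S100A11, and for S100A8 and S100A9, which are best known from myeloid cells. Most of the genes lie in a cluster on chromosome 1, and S100P lies on chromosome 4. The 10 genes described here are S100A2, S100A4, S100A6, S100A8, S100A9, S100A10, S100A11, S100A14, S100A16 and S100P. They were chosen by name, as the array probes other than controls that carry these gene names. These were 11 probes, 2 of them for S100A11, out of 34127 probes for 27263 genes.

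RNA of 2 established human pancreatic ductal adenocarcinoma cell lines was measured on single-colour Agilent oligonucleotide arrays. MIA PaCa-2 and Capan-1, the latter from a liver metastasis, were each measured without treatment (parental) and after transfection of an siRNA against the homeobox gene HOXB7 at 10 nM for 48 h. This gave 4 groups of 2 arrays, 8 arrays in all. The labels name no array of a control siRNA, so an effect of losing HOXB7 cannot be told apart from one of transfection, and nothing in the labels says that the 2 arrays of a group came from separate cultures. P-values therefore measured the spread between these arrays, which may be technical. Each line occupied 1 slide of 4 arrays, with siRNA arrays at positions 1 and 2 and parental arrays at positions 3 and 4, so slide and line, and position and treatment, cannot be told apart. Between 69.2% and 74.3% of the spots were well above background on each array, and 0 spots were saturated. HOXB7 itself was read at -4.82 and -4.10 in parental MIA PaCa-2 and at -7.77 and -7.78 after siRNA, where it was not well above background, which made it at least 3.16-fold lower (limma, adjusted p = 0.0174). In Capan-1 it was read at -2.48 and -2.34 in parental arrays and at -5.26 and -4.80 after siRNA, a log2 difference of -2.62 (SE 0.26) that missed the threshold (limma, adjusted p = 0.126).

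All levels are log2 signals relative to the 75th percentile of the same array, so that 0 marks a signal equal to that percentile. They can be compared between arrays for the same probe but not between probes. A difference was called when its p-value from limma, adjusted by Benjamini-Hochberg over all probes tested in that comparison, was under 0.05. A probe that was well above background on neither array of a group was not measured there. Its fold is given as at least the ratio to a floor, the lowest signal of any probe well above background on the same array. Where the probe's own signal was higher, that signal was used. Some probes, such as S100A14 in MIA PaCa-2, lay above the floor and were still not well above background. These bounds therefore hold for this floor and this background correction and are not strict limits. In RNA from whole cultures, fewer cells that express a gene and less RNA per cell cannot be told apart.

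The probes were 60 bases long, and those of S100A6 and S100A9 bridged an intron, since their alignments covered 431 and 2270 bases of the genome. The sequences of these and of the S100A11 pair are shown because S100A6 was not called between the lines and S100A9 was read above background in one line only, and because the S100A11 probes read the same gene 2 times. S100A6 was read at chr1:151773879-151774309 (hg18, minus strand), S100A9 at chr1:151597498-151599767 (hg18, plus strand) and S100A11 at chr1:150271784-150271843 and chr1:150271843-150271902 (hg18, minus strand), where the 2 probes abut and share 1 base.
S100A6: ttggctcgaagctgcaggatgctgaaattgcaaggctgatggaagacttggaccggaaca
S100A9: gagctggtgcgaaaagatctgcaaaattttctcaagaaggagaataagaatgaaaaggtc
S100A11 probe 1: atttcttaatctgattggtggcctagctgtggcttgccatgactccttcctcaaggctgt
S100A11 probe 2: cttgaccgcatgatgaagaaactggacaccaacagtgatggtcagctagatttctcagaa
The longest run of bases that a probe of these genes shared with a probe of a different S100 gene, on either strand, was 8 to 10 bases, among the 25 S100 probes on the array. RefSeq also lists pseudogenes of S100A11, which these probes were not tested against.

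S100A8 and S100A9 form calprotectin, a heterodimer that binds zinc and manganese and is released by neutrophils and monocytes. Both were well above background in Capan-1 and on no array of MIA PaCa-2. The S100A9 probe read 1.21 and 1.34 in parental Capan-1 and 0.89 and 0.90 after siRNA. It read -8.37 and -7.79 in parental MIA PaCa-2 and -8.02 and -8.04 after siRNA, not well above background on any of the 4 arrays. The lines did not overlap, and S100A9 was at least 161-fold higher in parental Capan-1 than in parental MIA PaCa-2 (limma, adjusted p = 4.93e-07). The S100A8 probe, at chr1:151629172-151629231 (hg18), read -1.46 and -1.48 in parental Capan-1 and -1.96 and -1.87 after siRNA. In MIA PaCa-2 it lay between -6.07 and -5.73 on the 4 arrays and was not well above background on any of them. S100A8 was thus at least 21.6-fold higher in parental Capan-1 (limma, adjusted p = 6.41e-07). Both genes entered the test only through Capan-1, so the filter on dim probes fixed their direction and the p-values add no support for it. With normexp background correction, which adds an offset of 50 to the signals, the log2 differences, MIA PaCa-2 minus Capan-1, were -3.94 for S100A9 and -1.32 for S100A8, both called and both smaller in size than these bounds.

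Blood cell markers were read beside this pair, since both genes are known from myeloid cells. Of the 8 genes PTPRC, CD14, CSF1R, ITGAM, FCGR3A, MPO, CD3E and MS4A1, 6 were well above background on both arrays of each of the 4 groups, and FCGR3A and MPO were not in any group. Their summed signal, in multiples of the array's 75th percentile, was 0.892 to 0.894 in parental Capan-1 and 4.07 to 4.23 in parental MIA PaCa-2. The sum was lower in the line that held S100A8 and S100A9, but in MIA PaCa-2 it was mostly CD14, on which this direction rests. CD14 was at -2.41 and -2.30 in parental Capan-1 and at 1.87 and 1.81 in parental MIA PaCa-2. The brightest PTPRC probe, which reads the pan-leukocyte antigen CD45, was at -3.43 and -3.95 in parental Capan-1 and -1.94 and -1.95 in parental MIA PaCa-2. The next PTPRC probe was well above background only in MIA PaCa-2, at -4.19 and -4.04 in parental arrays. The remaining PTPRC probes were well above background on no array. ITGAM, CD3E and CSF1R went the other way, with log2 differences of -1.44, -1.43 and -0.42, MIA PaCa-2 minus Capan-1, so that 3 of the 6 were called lower and 3 higher in MIA PaCa-2.

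S100A14 was likewise well above background only in Capan-1, and S100P was far lower in MIA PaCa-2. S100A14 is an S100 protein of epithelia, and its probe lies at chr1:151853630-151853689 (hg18). It read 2.36 and 2.39 in parental Capan-1 and 2.49 and 2.59 after siRNA. In MIA PaCa-2 it was not well above background on any array, at -5.75 to -5.56. S100A14 was at least 272-fold higher in parental Capan-1 (limma, adjusted p = 2.11e-07), and with normexp its log2 difference was -4.51. It too entered the test only through Capan-1, so the filter on dim probes fixed its direction. S100P, first purified from placenta and a binding partner of ezrin and IQGAP1, was read by a probe at chr4:6749720-6749779 (hg18). It was at 6.26 and 6.18 in parental Capan-1, 6.30 and 6.42 in siRNA-treated Capan-1, -0.46 and -0.42 in parental MIA PaCa-2 and -1.03 and -1.09 in siRNA-treated MIA PaCa-2. Unlike S100A8, S100A9 and S100A14, S100P was well above background on all 8 arrays, so its difference was measured on both sides. It was 101-fold lower in parental MIA PaCa-2, a log2 difference of -6.66 (SE 0.09, limma, adjusted p = 2.22e-07).

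S100A2 and S100A16 were expressed in both lines and were lower in MIA PaCa-2. S100A2, a target of p53 that is prominent in basal epithelium, was at 3.88 and 3.74 in parental Capan-1 and at 1.44 and 1.89 in parental MIA PaCa-2. The difference of -2.15 (SE 0.18) was 4.44-fold (limma, adjusted p = 0.000103). Its probe lies at chr1:151800455-151800514 (hg18). S100A16, a broadly expressed member with a single functional EF hand, was at 4.46 and 4.57 in parental Capan-1 and at 3.24 and 3.03 in parental MIA PaCa-2. The difference of -1.38 (SE 0.13) was 2.60-fold (limma, adjusted p = 0.000169), and its probe lies at chr1:151846299-151846358 (hg18). Neither gene overlapped between the lines.

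S100A4 and S100A10 were higher in MIA PaCa-2. S100A4, known as metastasin and a ligand of the non-muscle myosin heavy chain MYH9, was at 6.64 and 6.98 in parental MIA PaCa-2 and at 5.81 and 5.68 in parental Capan-1. The difference of 1.07 (SE 0.14) was 2.09-fold (limma, adjusted p = 0.000697). S100A10, the partner of annexin A2 in a complex that binds plasminogen at the cell surface, was at 5.71 and 6.12 in parental MIA PaCa-2 and at 4.91 and 4.86 in parental Capan-1. The difference of 1.03 (SE 0.16) was 2.05-fold (limma, adjusted p = 0.00153). Their probes lie at chr1:151782822-151782881 and chr1:150222044-150222103 (hg18), and on neither did the lines overlap.

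S100A6 and S100A11 were high in all groups and were not called between the lines. S100A6, or calcyclin, which binds CACYBP, was at 7.45 and 7.85 in parental MIA PaCa-2 and at 7.66 and 7.62 in parental Capan-1, so the lines overlapped. The log2 difference of 0.01 had a 95% confidence interval of -0.34 to 0.36 (limma, adjusted p = 0.953). S100A11, which binds annexin A1, gave -0.05 with its brighter probe (95% interval -0.42 to 0.32, adjusted p = 0.776) and -0.02 with the other (95% interval -0.29 to 0.26, adjusted p = 0.889). The brighter S100A11 probe ranged from 4.79 to 5.11 over the 8 arrays and the other from 4.56 to 4.88. A difference between the lines of 1 on the log2 scale, the size seen for S100A4, lay outside the interval of each of these 3 probes. The sign of the S100A6 difference turned under other processing, at -0.02 with another background correction (normexp) and -0.22 with quantile normalization.

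**Figure D1:**
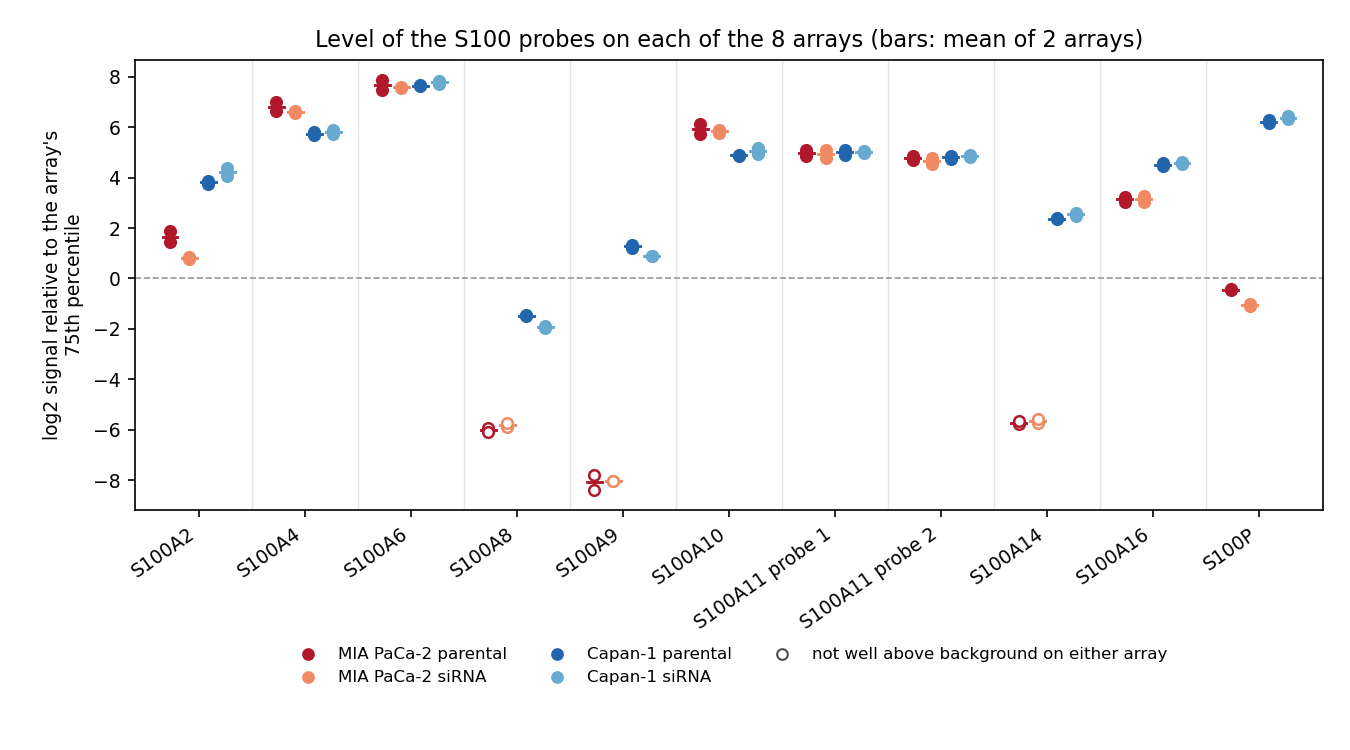
Level of each of the 11 probes on each of the 8 arrays, as log2 signal relative to the 75th percentile of the array (vertical axis), with the 4 groups side by side for each gene (horizontal axis). Each point is 1 array, the short bar is the mean of 2 arrays, and open points mark groups in which the probe was not well above background. S100A8, S100A9 and S100A14 are open in MIA PaCa-2 only, S100P lies between 6.18 and 6.42 in Capan-1 and between -1.09 and -0.42 in MIA PaCa-2, and S100A6 and S100A11 lie at like heights in all 4 groups.

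Over the family, 8 of the 10 genes were called between the parental lines, 6 lower and 2 higher in MIA PaCa-2. The lines differed widely, since 71.8% of the 20124 genes tested were called (31.7% lower and 40.1% higher in MIA PaCa-2), so the share of members called was near the background. The parental groups also did not overlap for 8 of the 10 members, against 86.4% of all genes. S100A8, S100A9 and S100A14 entered the test only through Capan-1, where they were high, so their direction followed from the filter on dim probes. The 8 calls kept their direction and their side of the threshold with each array left out in turn. When only probes well above background on all 8 arrays were tested, these 3 dropped out and 5 of the remaining 7 members were called, 3 lower and 2 higher, against 71.3% of 16560 genes.

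The arrays of siRNA-treated cells gave a second set of 2 arrays per line. Here too 8 of 10 members were called, the 6 lower and 2 higher in MIA PaCa-2 being those called in the parental arrays, against 71.8% of 20337 genes (30.7% lower and 41.1% higher in MIA PaCa-2). S100A8, S100A9 and S100A14 again entered only through Capan-1, so their direction followed from the filter on dim probes. Both comparisons also shared slides and 1 estimate of the spread, so the siRNA arrays were not an independent test. The S100A2 difference was -3.42 (SE 0.18, adjusted p = 1.43e-05), 10.7-fold, compared with 4.44-fold in parental arrays. S100P differed by -7.42 (SE 0.09, adjusted p = 2.06e-07), and S100A16 by -1.42 (SE 0.13, adjusted p = 0.000146). S100A4 was higher in MIA PaCa-2 by 0.78 (SE 0.14, adjusted p = 0.00269) and S100A10 by 0.78 (SE 0.16, adjusted p = 0.00527). S100A8 was at least 14.9-fold, S100A9 at least 129-fold and S100A14 at least 291-fold higher in Capan-1 (limma, largest adjusted p of the 3 = 9.88e-07). S100A6 (-0.21, adjusted p = 0.235) and both S100A11 probes (-0.07 and -0.20, adjusted p = 0.713 and 0.162) again missed the threshold. Whether the size of a line difference itself changed with treatment is tested below as the difference of the siRNA effects.

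**Figure D2:**
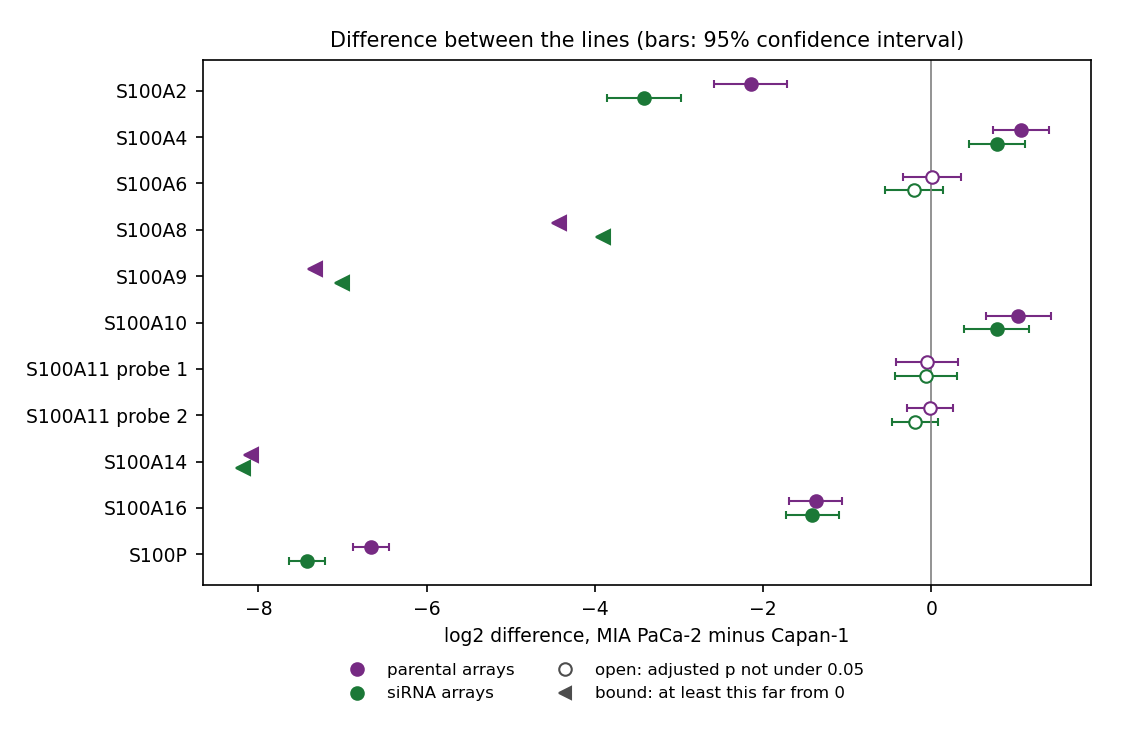
Log2 difference, MIA PaCa-2 minus Capan-1, of each probe (horizontal axis; probes on the vertical axis) in parental arrays and in siRNA arrays, with 95% confidence intervals from limma as bars and open points where the adjusted p was not under 0.05. Triangles mark the bounds of S100A8, S100A9 and S100A14, at background in MIA PaCa-2. All 8 called genes lie on the same side of 0 in both sets of arrays, with S100A4 at 1.07 and 0.78, while S100A6 lies at 0.01 and -0.21. The side of S100A8, S100A9 and S100A14 followed from the filter on dim probes.

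The labelled tumour cell type was read through epithelial markers. All 8 epithelial genes were called lower in parental MIA PaCa-2, against 31.7% of all genes. EPCAM and CDH1, the cell adhesion genes that define epithelia, were not well above background there. Their direction therefore followed from the filter on dim probes. EPCAM was at 5.96 and 5.86 in parental Capan-1, at least 4000.5-fold higher, and CDH1 at 3.77 and 3.73, at least 894-fold higher. The summed signal of the 8 genes was 337 to 367 times the 75th percentile in parental MIA PaCa-2 and 1169 to 1238 times in parental Capan-1. KRT7, KRT8, KRT18 and KRT19, the keratins of simple epithelium, were well above background in both lines. Mesenchymal VIM was at 7.87 and 8.01 in parental MIA PaCa-2 and at -1.01 and -1.11 in parental Capan-1. Mesenchymal markers were split, with VIM and ZEB1 higher and CDH2 and FN1 lower in MIA PaCa-2. The lower levels of S100A2, S100A8, S100A9, S100A14, S100A16 and S100P in MIA PaCa-2 went along with lower epithelial markers, whose part in them was not tested. Of the keratinocyte markers, KRT14 was at least 54.6-fold higher in Capan-1, KRT10 differed by -1.68 on the log2 scale, lower in MIA PaCa-2, and KRT1 and KRT5 were not well above background on both arrays of any group. Fibroblast and endothelial markers had summed signals from 0.0985 to 0.124 and from 0.213 to 0.335 in parental arrays of both lines. LUM, PDGFRB, PECAM1 and KDR were not well above background on both arrays of any group.

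After HOXB7 siRNA in MIA PaCa-2, S100P was lower past the threshold, and no other member was called. Its level was -0.46 and -0.42 in parental arrays and -1.03 and -1.09 after siRNA, a log2 difference of -0.62 (SE 0.09, 95% interval -0.83 to -0.41), or 1.54-fold (limma, adjusted p = 0.0372). Of the 10 members, 7 were tested and 1 was called, against 2.26% of 19175 genes called (1.12% lower), while S100A8, S100A9 and S100A14 were not tested because both groups were at background. The adjusted p of S100P ran from 0.00666 to 0.141 over the alternatives tried, and the call was lost with any 1 of the 8 arrays left out (0.0741 to 0.111), with differences between -0.65 and -0.59. S100A2 was at 1.44 and 1.89 in parental arrays and at 0.84 and 0.78 after siRNA, a larger difference of -0.85 (SE 0.18) that missed the threshold (limma, adjusted p = 0.0755). It passed with normexp background correction (0.0110), when every tested probe had to exceed background on all 8 arrays (0.0410) and with a spread allowed to depend on intensity (0.0264).

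None of the remaining members tested in MIA PaCa-2 came near the threshold. S100A4 was at 6.64 and 6.98 before and at 6.64 and 6.55 after siRNA, a difference of -0.22 (95% interval -0.55 to 0.12, adjusted p = 0.425). The groups overlapped for S100A6, S100A10, S100A11 and S100A16, whose differences lay between -0.13 and 0.01, with adjusted p from 0.571 to 0.986. The groups did not overlap for 3 of the 7 members tested, against 52% of all genes. The median log2 difference of the members was -0.09 and that of all genes 0.02. Interferon-stimulated genes, read because transfected RNA can raise them, were called higher for 2 of 15 tested, against 220 of 19175 genes, with IFI27 up by 2.09 and IFI6 by 0.82. A probe at an unadjusted p under 0.05 in limma was found for 7 of the 15, 4 of them higher, against 23.4% of all genes. The summed signal of the interferon-stimulated genes was 74.8 to 76.5 times the 75th percentile in parental arrays and 65.0 to 67.2 after siRNA. Of the epithelial markers, MUC1 was called lower, at 1.08 and 0.93 before and at 0.06 and 0.10 after siRNA (limma, adjusted p = 0.0249), and the summed signal of the 8 was 337 to 367 before and 330.1 to 331 after. The summed signal of the 4 mesenchymal markers was 237 to 260 before and 296 to 319 after siRNA. This sum was nearly all VIM, at 7.87 and 8.01 before and at 8.31 and 8.20 after siRNA. The brightest ZEB1 probe was at 1.27 and 1.07 before and at 1.23 and 1.16 after. None of the 3 mesenchymal markers tested was called. A probe at an unadjusted p under 0.05 was found for 2, VIM and ZEB1, both higher, against 23.4% of all genes. For ZEB1 this was the dimmer probe, at -0.86 and -0.56 before and at 0.04 and -0.05 after siRNA. Of the 6 epithelial markers tested, 2 had such a probe, both lower. The part of these markers in the S100 values was not tested.

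In Capan-1 no member was called after HOXB7 siRNA. All 10 were tested, and 0.00529% of 18891 genes, which was 1 gene, were called. At an unadjusted p under 0.05, 1 member passed, S100A8, beside 12.5% of all probes. S100A8 was at -1.46 and -1.48 before and at -1.96 and -1.87 after siRNA, a log2 difference of -0.45 (SE 0.10, 95% interval -0.69 to -0.21) with an unadjusted p of 0.00404 and an adjusted p of 0.240 (limma). Its partner S100A9 was at 1.21 and 1.34 before and at 0.89 and 0.90 after siRNA, a difference of -0.38 (SE 0.19, 95% interval -0.84 to 0.07, adjusted p = 0.456). S100A2 was at 3.88 and 3.74 before and at 4.07 and 4.38 after siRNA, a difference of 0.41 (SE 0.18, 95% interval -0.02 to 0.85, adjusted p = 0.420). S100P, at 6.26 and 6.18 before and 6.30 and 6.42 after, differed by 0.14 (95% interval -0.07 to 0.35, adjusted p = 0.538).

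S100A14 differed by 0.16 in Capan-1 (95% interval -0.08 to 0.40, adjusted p = 0.532) and S100A10 by 0.17 (95% interval -0.22 to 0.55, adjusted p = 0.692). S100A4, S100A6, S100A11 and S100A16 lay between 0.01 and 0.14, with adjusted p from 0.715 to 0.993. The siRNA and parental arrays did not overlap for 7 of the 10 members, against 54.1% of all genes. Without scaling between arrays, S100A4, S100A6, S100A11, S100A16 and S100P turned to small negative differences, given with the effects of processing. None of the 18 interferon-stimulated genes was called in Capan-1 by limma, although 12 had a probe at an unadjusted p under 0.05, all higher after siRNA, against 14.6% of all genes, and their median log2 difference was 0.46 and their summed signal went from 42.8 to 43.3 in parental arrays to 62.5 to 68.5 after siRNA. Their part in the S100 values was not tested.

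**Figure D3:**
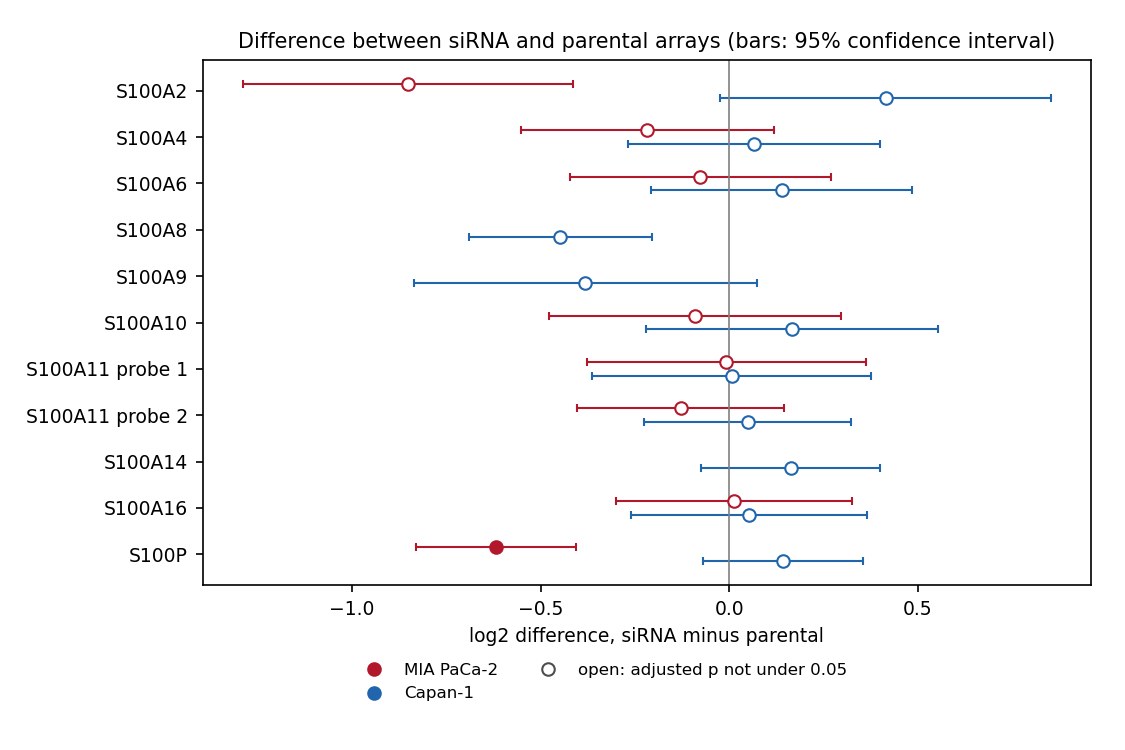
Log2 difference, siRNA minus parental, of each probe (horizontal axis; probes on the vertical axis) in each line, with 95% confidence intervals from limma as bars. Filled points passed an adjusted p of 0.05, which was the case for S100P in MIA PaCa-2 at -0.62, and S100A8, S100A9 and S100A14 have no point in MIA PaCa-2 because both groups were at background.

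The siRNA effects of the lines were also compared directly, as the effect in MIA PaCa-2 minus that in Capan-1. No member passed the threshold in limma, and 0.00486% of 20575 genes did, which was 1 gene. At an unadjusted p under 0.05, 3 members passed, against 11.1% of all probes. S100P differed by -0.76 (SE 0.12, adjusted p = 0.144), S100A2 by -1.27 (SE 0.25, adjusted p = 0.194) and S100A8 by 0.64 (SE 0.14, adjusted p = 0.222, all limma). S100A8 was not well above background in MIA PaCa-2, so its value there compares signals at background. The effect on S100P was thus past the threshold in MIA PaCa-2 and not in Capan-1, and the test of the difference between the lines did not pass. S100A2 passed that test with normexp background correction (-1.19, adjusted p = 0.0362), and S100P with an intensity trend in the spread (adjusted p = 0.0497).

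The 4 groups were ordered by their means for the genes other than S100A6 and S100A11. Within a line, only the S100P groups in MIA PaCa-2 differed past the threshold, so the other orders within a line are not established. For S100P it ran from siRNA-treated Capan-1 (mean 6.36) and parental Capan-1 (6.22), which did not differ past the threshold, down to parental MIA PaCa-2 (-0.44) and siRNA-treated MIA PaCa-2 (-1.06), which did. For S100A2 it ran from siRNA-treated Capan-1 (4.22) and parental Capan-1 (3.81) to parental MIA PaCa-2 (1.66) and siRNA-treated MIA PaCa-2 (0.81), and within each line the neighbours did not differ past the threshold. For S100A4 and S100A10 the MIA PaCa-2 groups came first (means 6.81 and 6.59 for S100A4, 5.92 and 5.83 for S100A10, parental then siRNA) and the Capan-1 groups followed (5.81 and 5.75, 5.05 and 4.89, siRNA then parental). For S100A9 and S100A8 the order was parental Capan-1 (1.27 and -1.47) and siRNA-treated Capan-1 (0.89 and -1.92), with both MIA PaCa-2 groups at background. S100A14 (2.54 and 2.38) and S100A16 (4.57 and 4.51) were ordered siRNA-treated then parental Capan-1, which did not differ past the threshold, and S100A16 then lay at 3.15 and 3.14 in MIA PaCa-2. The group means of S100A6 lay between 7.57 and 7.78, and it was not called between the parental lines, between the siRNA-treated lines or after siRNA in either line.

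Of the other 10 S100 genes on the array, 7 were tested between the parental lines, and 5 were called higher and 1 lower in MIA PaCa-2, against the 40.1% and 31.7% of all genes given above. S100Z was read at -1.78 and -1.75 in parental MIA PaCa-2 and was not well above background in Capan-1, which made it at least 21.9-fold higher in MIA PaCa-2 (limma, adjusted p = 4.22e-06). S100A1 was higher with both probes, by 1.08 (SE 0.13) with one and at least 17.7-fold with the other, for which Capan-1 was at background. S100A5 was higher by 1.90 (SE 0.18), S100A13 by 0.49 (SE 0.10) and S100A3 by 0.30 (SE 0.09). S100A12, the third calgranulin beside S100A8 and S100A9, was at least 2.52-fold higher in Capan-1 with its dimmer probe, while its brighter probe gave -0.67 and was not called (adjusted p = 0.0889). The 1 lower call rests on this dimmer probe. The probes with bounds, including that of S100Z, entered the test only through 1 line, so their direction followed from the filter on dim probes. S100A7 was not called, and S100A7A, S100B and S100G were not well above background on both arrays of any group. After siRNA in MIA PaCa-2, S100A3 was called lower, from -0.02 and -0.11 to -0.94 and -0.85 (log2 difference -0.82, SE 0.09, limma, adjusted p = 0.0270), and was the only call among these genes in either line.

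Along chromosome 1 genes with opposite differences were neighbours. In the order of their probes, S100A5, S100A4 and S100A3 were higher in parental MIA PaCa-2, and the next 3 genes, S100A2, S100A16 and S100A14, were lower, followed by S100A13 and S100A1, which were higher. S100A6, which was not called, lay directly before S100A5. Of the neighbours S100A14 and S100A13, the former was at least 272-fold higher in Capan-1 and the latter differed by 0.49, higher in MIA PaCa-2. At the other end, S100A10 (1.03) and S100A11 (-0.05) lay next to each other, before S100A9, S100A12 and S100A8. A plot in chromosomal order shows these values.

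**Figure D4:**
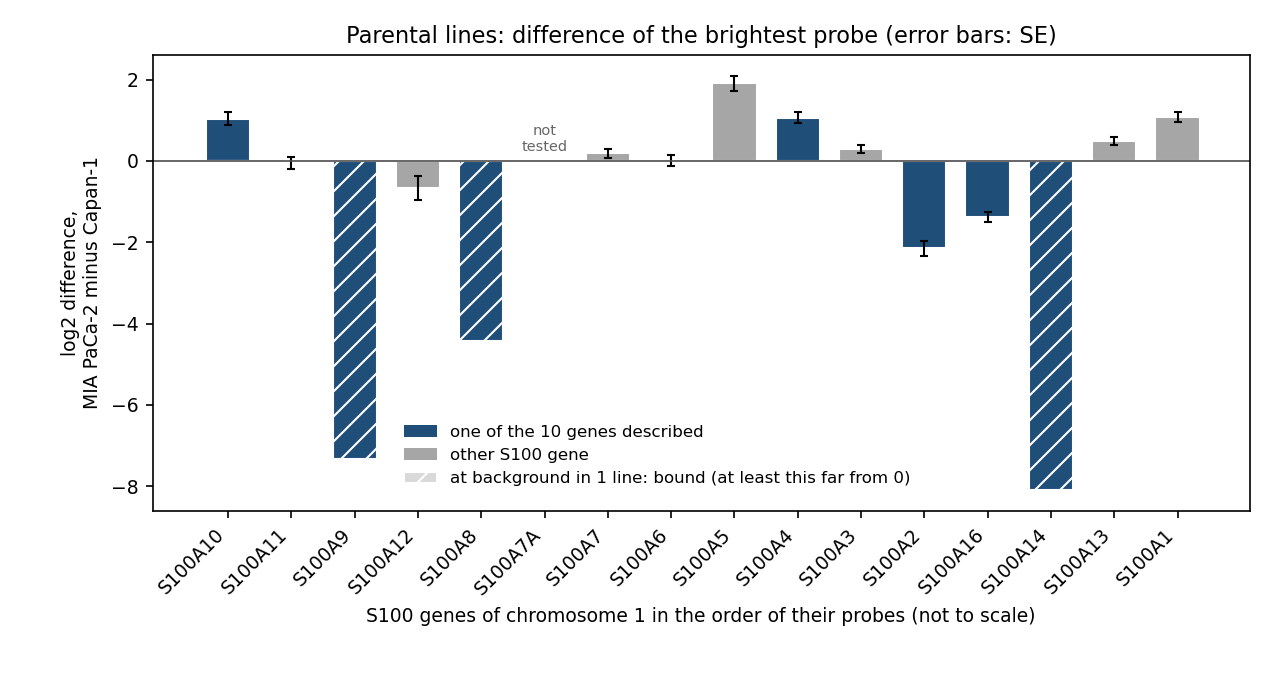
Log2 difference between the parental lines, MIA PaCa-2 minus Capan-1 (vertical axis), of the brightest probe of each S100 gene of chromosome 1, in the order of the probes (horizontal axis, not to scale); error bars are SE from limma. Dark bars are the genes described here, grey bars other S100 genes, and hatching marks probes not well above background in 1 line, whose bars end at the bound and have no SE. The bounds of S100A8, S100A9 and S100A14, whose side followed from the filter on dim probes, stand for at least 21.6, 161 and 272-fold. S100A5 is higher in MIA PaCa-2 by 1.90.

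Genes whose products bind S100 proteins or receive their signals were read beside the family. Of 24 listed, 22 were tested between the parental lines, and 12 were called lower and 7 higher in MIA PaCa-2, against 31.7% and 40.1% of all genes, with a median log2 difference of -0.04 (0.10 over all genes). TLR4, a receptor for S100A8 and S100A9, was at least 15.8-fold higher in Capan-1, where those 2 genes were also higher. ANXA2, the partner of S100A10, was lower in MIA PaCa-2, with log2 differences of -1.61 for its brighter probe and -2.94 for the other, whereas S100A10 was higher there. PLAT, the plasminogen activator tPA, which can bind S100A10, differed by -6.06 and the calcium channel gene TRPV6 by -4.03, both lower in MIA PaCa-2. FGFR1 was at least 31.9-fold higher in MIA PaCa-2 with a probe that was at background in Capan-1. Its brightest probe, well above background in both lines, showed a smaller difference, at -2.90 and -2.88 in parental MIA PaCa-2 and at -5.14 and -4.96 in parental Capan-1. MDM2 gave -1.75 with its second probe, while its brightest probe gave 0.04 and was not called. AGER, the receptor RAGE, and S100PBP, a nuclear protein that binds S100P, were added after their values were seen, and both were higher in MIA PaCa-2, AGER by 1.29 (adjusted p = 0.00167) and S100PBP by 1.73 (adjusted p = 9.69e-06). After siRNA, none of the 21 tested in MIA PaCa-2 (9 with a probe at an unadjusted p under 0.05, against 23.4% of all genes) and none of the 22 tested in Capan-1 (3, against 14.6%) was called by limma, and their median log2 differences were -0.19 and -0.10.

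The S100 genes lie beside the epidermal differentiation complex, whose genes make the cornified envelope of skin. Of 24 genes of the complex and its surroundings, 18 were tested between the parental lines, 9 were called lower and 4 higher in MIA PaCa-2. These 13 of 18 stood against 71.8% of all genes. The lower genes named here encode small proline-rich proteins and involucrin. SPRR1B differed by -5.51 on the log2 scale, SPRR2D by -5.34 with its dimmer probe and by -0.97 with its brighter one, and SPRR3 by -3.92. The probes of SPRR2A and IVL and the dimmer SPRR1A probe were well above background on only 1 of the 2 parental MIA PaCa-2 arrays, so their measured differences of -7.40, -1.68 and -5.83 rest in part on a signal at background. For SPRR1A the brighter probe gave -0.12 and was not called. After siRNA, limma called none of 19 neighbours tested for MIA PaCa-2 and none of 18 for Capan-1. A probe at an unadjusted p under 0.05 was found for 7 in MIA PaCa-2, against 23.4% of all genes, and for 2 in Capan-1, against 14.6%.

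Over the 8 arrays, the genes whose levels ran closest to S100A4, each centred on its own mean, were SH3BGR, E2F3 and PRPSAP2, with root mean square differences of 0.0556, 0.0568 and 0.0573 on the log2 scale among 25554 probes. Among those closest to S100P were COL16A1 and CDS1, at 0.156 and 0.184, but in parental MIA PaCa-2 COL16A1 was well above background on 1 of 2 arrays and CDS1 on neither. The 8 arrays came from only 2 lines, and the measure carries no test.

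Promoter sequence was read from RefSeq (GRCh38.p14), which held windows of 250 bases before to 50 bases after a start for all 10 members, 14 windows in all. The letters TATAA stood on the gene's strand 20 to 40 bases before a start in 6 of these 14 windows (42.9%), 1 each of S100A4, S100A6, S100A8, S100A9, S100A14 and S100P, compared with 3.77% of the 35116 windows in the table. S100A8 held them there at 1 of its 3 starts. On either strand and anywhere in the 300 bases, 50% of the members' windows and 20.4% of all windows held them. The 250 bases upstream of S100P, S100A9, S100A14 and S100A6 are shown because S100P, S100A9 and S100A14 were the members with the largest folds or bounds between the lines and S100A6 was not called, while all 4 hold the motif, given in capitals, 28 to 30 bases before the start.
S100P, chr4:6693628-6693877 (plus strand): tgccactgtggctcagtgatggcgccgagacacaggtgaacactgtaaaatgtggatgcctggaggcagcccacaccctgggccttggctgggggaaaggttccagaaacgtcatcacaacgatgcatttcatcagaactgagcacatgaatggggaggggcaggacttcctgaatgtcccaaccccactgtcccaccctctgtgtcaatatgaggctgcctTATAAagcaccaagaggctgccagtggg
S100A9, chr1:153357604-153357853 (plus strand): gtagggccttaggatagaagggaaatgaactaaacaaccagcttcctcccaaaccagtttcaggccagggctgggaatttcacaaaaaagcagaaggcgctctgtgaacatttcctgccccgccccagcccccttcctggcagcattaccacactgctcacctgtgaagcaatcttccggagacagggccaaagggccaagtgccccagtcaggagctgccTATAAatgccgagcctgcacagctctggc
S100A14, chr1:153616326-153616575 (minus strand): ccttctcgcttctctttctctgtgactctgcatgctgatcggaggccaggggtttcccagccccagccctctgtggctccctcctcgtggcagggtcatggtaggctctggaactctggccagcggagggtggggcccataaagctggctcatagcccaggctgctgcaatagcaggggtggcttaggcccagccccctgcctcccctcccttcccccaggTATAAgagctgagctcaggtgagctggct
S100A6, chr1:153535992-153536241 (minus strand): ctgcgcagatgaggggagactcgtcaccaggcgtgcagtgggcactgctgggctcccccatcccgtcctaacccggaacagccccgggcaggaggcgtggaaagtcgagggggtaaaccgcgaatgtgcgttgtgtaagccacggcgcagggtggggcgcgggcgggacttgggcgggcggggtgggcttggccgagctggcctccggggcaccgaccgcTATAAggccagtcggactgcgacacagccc
These upstream stretches held 24 CG dinucleotides in S100A6 and 4 each in S100P, S100A9 and S100A14. S100A10 also held 24 and S100A11 held 15, and these 3 were the members above the median of all windows, which was 11. S100A4 held 7. S100A2 held 3 and 4 at its 2 starts, S100A16 held 6 and 1, and S100A8 held 2 at each of 3. These counts describe the sequence, and no methylation or binding was measured.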

How the data were processed

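Total RNA was labelled with Cy3 and hybridised to single-colour Agilent arrays, which the authors scanned and quantified with Agilent Feature Extraction 9.5.3, per the labels. The deposited scanner files hold the background-subtracted intensity of each spot (processed signal), and a deposited table of the whole series holds log2 values of the same arrays, used as an alternative. Control spots and spots with an outlier flag were left out, spots of a probe were averaged, and log2 intensity was set relative to the 75th percentile of each array. Probe coordinates are those of the scanner files (hg18). Of 34127 probes, 24827 were named through RefSeq by accession and 1776 by symbol or synonym, and 7524 kept the file's name.

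Groups were taken from the labels. A comparison took in the probes that exceeded background clearly (the scanner's flag) on each array of 1 or both of its groups. One limma 3.58.1 model (R 4.3.3) with the 4 groups was fitted over all 8 arrays, and p-values were adjusted by Benjamini-Hochberg over all probes tested in each comparison. A gene counted as called when at least 1 probe passed in a direction and none in the other. An exact permutation test of 2 arrays against 2 cannot give a p below 0.33, so none was used. The number of arrays limits the precision. The script was tested on simulated data. Every probe of the 10 genes was named, with the brightest probe first. Other S100 genes were named where called, and partners and neighbours where called, at most the 6 with the largest change in each list. The members and lists were chosen with earlier results of these data known.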

Additional observations from a re-analysis of the deposited data

How the results depend on the processing

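The count of members called between the parental lines was 8 under every alternative but 1, and between the siRNA-treated lines it was 8 or, with normexp and quantile normalization, 9. Both were 5 where a probe needed to exceed background clearly on all 8 arrays, a filter that leaves 7 members to test, and both were 8 to 8 with each array left out in turn. After siRNA in MIA PaCa-2 the count of 1 (S100P) became 2 with normexp background correction, with that filter and with a trend of the spread with intensity (S100A2 was added), and 0 without scaling (adjusted p of S100P 0.141), without a filter on dim probes (0.0879), with only the arrays of the groups compared (0.138) and, leaving out each array in turn, 0 to 0. In Capan-1 the count stayed at 0 throughout. The difference of the siRNA effects had a count of 0 that became 1 with normexp (S100A2) and 1 with an intensity trend (S100P). Normexp with its offset of 50 gave smaller line differences for the genes at background in MIA PaCa-2 (-3.94 for S100A9, -1.32 for S100A8 and -4.51 for S100A14 between the parental lines), below the bounds printed for them. Between siRNA-treated lines, S100A6 passed under quantile normalization (-0.43, adjusted p = 0.0255) and the dimmer S100A11 probe under normexp (-0.31, adjusted p = 0.0329).

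Replicate numbers are shared by the groups, but the samples with the same number did not deviate together (correlations of deviations 0.02 and 0.04 within the lines, 0.02 and -0.09 between them), so the numbers do not pair the arrays. With the replicate block the count of members called in MIA PaCa-2 was 0 (adjusted p of S100P 0.0779), and it was unchanged in the other 4 comparisons.

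Signs turned only for differences near 0. Between the parental lines S100A6 was -0.020 with normexp and -0.22 with quantile normalization, and the dimmer S100A11 probe was 0.013 without scaling. In MIA PaCa-2, S100A16 was -0.20 without scaling. In Capan-1, quantile normalization gave -0.013 for S100A4, -0.071 and -0.0093 for the S100A11 probes and -0.0079 for S100A16. Without scaling, which shifted the median of all probes by -0.15 in Capan-1 and -0.21 in MIA PaCa-2, the values in Capan-1 were -0.087 for S100A4, -0.014 for S100A6, -0.15 and -0.10 for the S100A11 probes, -0.10 for S100A16 and -0.010 for S100P. Normexp gave -0.00079 for the brighter S100A11 probe. In the difference of the siRNA effects, quantile normalization gave 0.046 for the brighter S100A11 probe and 0.040 for S100A16, and normexp 0.0091 for S100A14. The cause was not tested. With each array left out in turn, the values that crossed 0 ran from -0.19 to 0.21 for S100A6, -0.17 to 0.067 and -0.10 to 0.064 for the S100A11 probes between the parental lines. In MIA PaCa-2 they ran from -0.28 to 0.12 for S100A6, -0.30 to 0.11 for S100A10, -0.17 to 0.16 for the brighter S100A11 probe and -0.12 to 0.15 for S100A16. In Capan-1 they ran from -0.012 to 0.14 for S100A4, -0.092 to 0.11 and -0.013 to 0.11 for the S100A11 probes and -0.0020 to 0.11 for S100A16. Between the siRNA-treated lines the brighter S100A11 probe ran from -0.23 to 0.097, and in the difference of the siRNA effects from -0.18 to 0.15, with S100A16 from -0.17 to 0.094.

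Counts over all genes after siRNA depended on the setting. In MIA PaCa-2, 220 genes were higher and 214 lower. The alternatives gave 386 and 482 with normexp, 14 and 32 without scaling, 424 and 530 with the filter on all 8 arrays, 5 and 5 without a filter, 0 and 0 with only the arrays compared, 7 and 12 with the replicate block, 530 and 659 with an intensity trend and 329 lower with quantile normalization, and 0 to 617 and 0 to 207 with arrays left out. In Capan-1 the 1 higher and 0 lower became up to 39 and 31 (normexp), and with arrays left out 0 to 128 and 0 to 40. The difference of the siRNA effects, at 0 higher and 1 lower, became up to 16 higher with an intensity trend and 31 lower with normexp, and with arrays left out 1 to 334 and 0 to 65. S100A8, S100A9 and S100A14 were not well above background in MIA PaCa-2, which left their siRNA effect there unmeasured.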
